A study of Mus musculus with 4 samples.

Results

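The endothelin and angiotensin genes described here are 8 of the 32286 genes counted in this series, chosen by name: the ligand genes Edn1 and Edn3, the converting enzyme gene Ece1 and the receptor genes Ednra and Ednrb of the endothelin system, and the precursor gene Agt, the converting enzyme gene Ace and the receptor gene Agtr1a of the angiotensin system. They were followed through the endothelial, mural and fibroblast cells of 3 single-cell RNA libraries from vessels of the mouse hind limb. Of the 8, 7 had enough counts to be tested, and Edn3 did not.

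Endothelins are short peptides cut from a larger precursor by endothelin-converting enzyme, and they act through 2 receptors, of which the type A receptor on smooth muscle drives contraction and the type B receptor on endothelium drives release of relaxing factors and clears the peptide. Angiotensin II arises when renin cuts angiotensinogen and angiotensin-converting enzyme trims the product, and its type 1 receptor constricts vessels. Both receptor families act in large part through Gq and G12/13 proteins, phospholipase C and kinases of the contractile apparatus, which are also part of the control of lymphatic and venous tone.

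The cells came from adult mice of the cross of WT1GFPCre, an EGFP/cre knock-in at Wt1, with the Ai9-tdT reporter, given Evans blue dye in the footpad. The 2 PLV libraries, PLV 1 and PLV 2, hold popliteal lymphatic vessels of 2 pooled mice each, digested for 30 min with collagenase I, Dispase II, DNase and Liberase. The mixed library holds popliteal lymphatic and blood vessels of 1 set of 2 mice, digested for 60 min with collagenase I and Dispase II. All 3 libraries carry both alleles and no wild-type animals were analysed here, so nothing can be said of either allele, and the pooled mice of a library count as 1 sample. The vessels of the mixed library were tagged with hashtag antibodies, but the median share of the first hashtag was 79.8% in near-empty droplets and 79.7% in cells. The tags were therefore not used to separate the vessels, and the library was used as 1 sample. Whether they separate part of the cells was not tested. Vessel type, digestion, run and mice therefore differ together between the PLV and the mixed libraries and cannot be told apart.

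After filtering, 1909, 516 and 994 cells remained in PLV 1, PLV 2 and mixed, with 9577642, 3390010 and 7770796 unique molecular identifiers (UMIs, each standing for 1 captured RNA molecule) and medians of 3372, 4886.5 and 6162 UMIs per cell. The 3 libraries shared 0 cell barcodes. Cells were clustered per library without the 8 genes or the other pathway genes, and clusters were named from fixed marker lists: 429, 110 and 316 muscle-like cells, 72, 27 and 58 pericyte-like cells, 401, 87 and 286 fibroblast-like cells, 259, 60 and 174 blood endothelial-like cells, and 192, 66 and 53 lymphatic endothelial-like cells. Each name is the class with the largest share of its markers raised at least 2-fold above the other cells of the library. The leading genes served only to withhold a name, and the summed markers followed the names in part. The pair Pecam1 and Cdh5 summed to 1487 to 2565 CPM (UMIs of a gene per 1000000 UMIs of that class and library) in the 2 endothelial-like classes, to 24.5 to 116 CPM in pericyte-like cells and to 3.66 to 9.39 CPM in muscle-like cells. Pericyte markers summed to 5958 to 11505 CPM in pericyte-like cells but also to 925 to 1934 CPM in blood endothelial-like cells, where 0 of the 10 were at 0, against 36.2 to 126 CPM in lymphatic endothelial-like cells. Pericyte-like cells also held muscle markers at 8778, 8813 and 13328 CPM, in the mixed library above their pericyte markers (5958 CPM), and fibroblast markers at 3965 to 6721 CPM. In lymphatic endothelial-like cells of the mixed library blood endothelial markers (2376 CPM) were above lymphatic ones (1847 CPM, 3 of 7 at 0), so these 2 names go against the summed markers there, and the part of other cells in the values of these classes was not tested.

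Start-site sequence is shown for a ligand gene and a precursor gene whose window held a match to a searched motif: the ligand gene Edn1, high in endothelium, and the precursor gene Agt, which differed most between the kinds of library in fibroblasts. Both are from RefSeq on build GRCm38.p6, written 5′ to 3′ on the gene's own strand. The first is chr13:42301476-42301505 (plus strand), the first 30 transcribed bases of Edn1, with a reverse GATA-type match in capitals. The second is chr8:124569707-124569766 (minus strand), the 60 bases before the annotated start of Agt, with a TATA-box match in capitals that begins 30 bases before the start.
Edn1: gccgggtcTTATCTctggctgcacgttgcc
Agt: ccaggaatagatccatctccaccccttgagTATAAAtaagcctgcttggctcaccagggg
The GATA-type letters searched were the string AGATAA, the string AGATAG, the string TGATAA and the string TGATAG on both strands, found in 29.8% of all 32851 windows of 300 bases and in 1 of the 7 members with a window in the table. TATAAA on both strands was found in 13.6% of windows and in 2 of the 7 members, Agt and Ace. These matches describe the letters and show no bound factor.

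The members differed in the classes where they were highest. The ligand Edn1 and its converting enzyme Ece1 were highest in endothelium, Ednra was highest in mural cells, Ednrb was high in both endothelial-like classes, Ace was high in blood endothelium and fibroblasts, and Agtr1a was highest in pericyte-like cells and at 0 UMIs in lymphatic endothelium. In near-empty droplets of the mixed library, which show the free RNA of the suspension (185412 droplets, 1000645 UMIs), Ece1 stood at 57.0 CPM, Ace at 44.0 CPM, Ednra at 22.0 CPM, Edn1 at 21.0 CPM, Ednrb at 18.0 CPM, Agt at 15 CPM, Agtr1a at 3.0 CPM and Edn3 at 0. Levels of the mixed library at or under these values were read as background; no such droplets of the PLV libraries were analysed here.

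**Figure D1:**
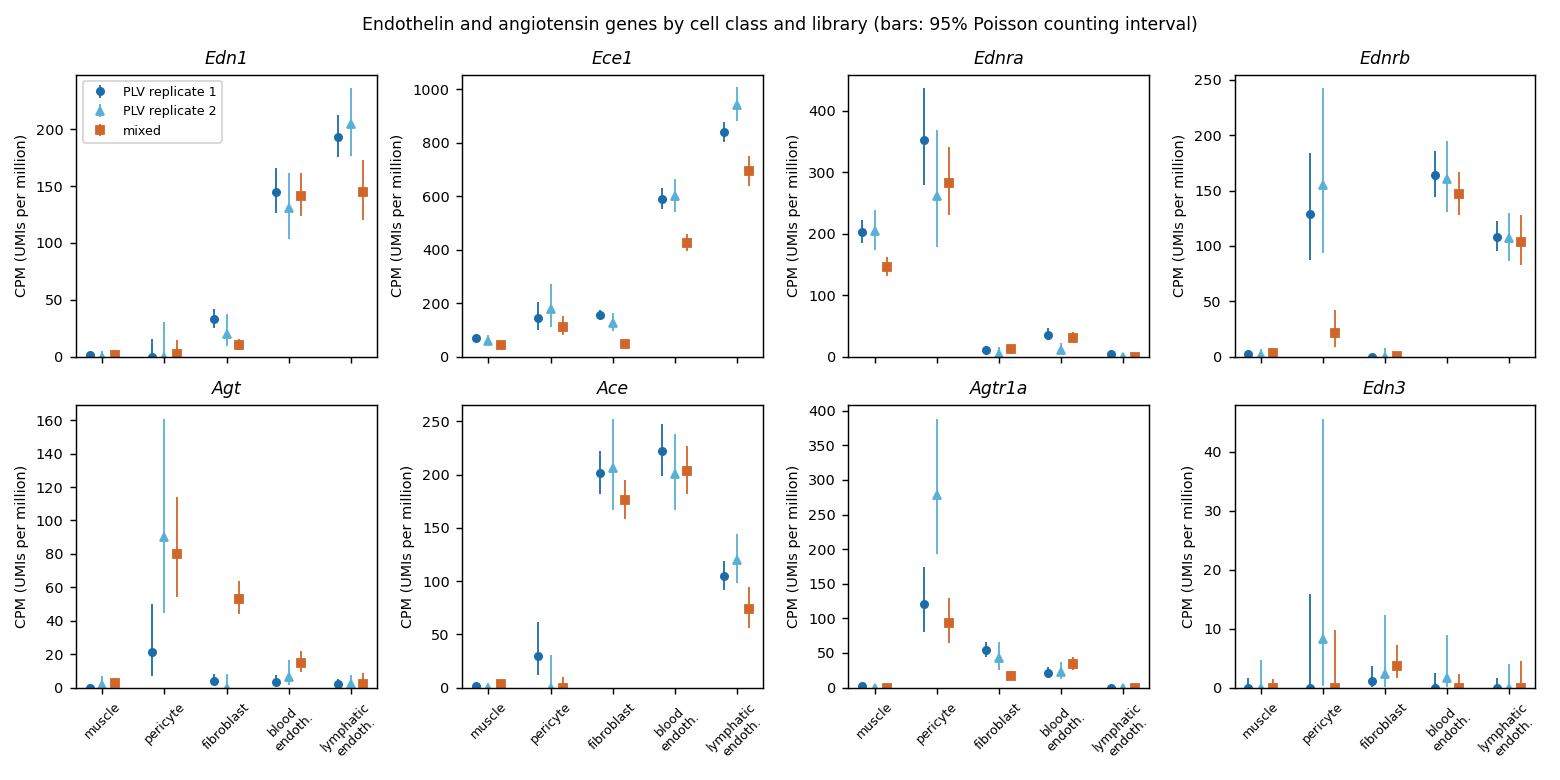
Level of each of the 8 genes (y axis, CPM, linear) in 5 cell classes (x axis) for each of the 3 libraries; points are sums over cells of a class and bars the 95% Poisson counting interval. Edn1 and Ece1 peak in the endothelial-like classes, Ednra and Agtr1a in pericyte-like cells, and Ednrb in pericyte-like cells is 129 and 155 CPM in the PLV libraries and 21.3 CPM in the mixed one.

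Edn1 (ENSMUSG00000021367, chr13:42301476-42307990, plus strand on GRCm38), the endothelin-1 precursor, stood in lymphatic endothelial-like cells at 193, 205 and 145 CPM in PLV 1, PLV 2 and mixed (442, 190 and 120 UMIs). In blood endothelial-like cells it stood at 145, 130 and 142 CPM (217, 82 and 223 UMIs). The means were 181 ± 31.9 and 139 ± 7.63 CPM (SD, n = 3 libraries), and the ranges of these 2 classes overlapped. In the mixed library 51 of the 120 lymphatic UMIs lay in 1 cell, and the level was 83.3 CPM without it. Fibroblast-like cells followed at 32.9, 19.9 and 10.1 CPM (64, 9 and 22 UMIs), under both endothelial-like classes in each library, with the mixed value under the 21.0 CPM of near-empty droplets. Muscle-like cells held 3, 0 and 3 Edn1 UMIs and pericyte-like cells 0, 0 and 1. Summed over libraries, the blood endothelial-like level was 129-fold the muscle-like one (95% counting interval 58.7 to 352). Thinned to 1500 UMIs per cell, 12.9%, 13.8% and 20.6% of blood and 16.9%, 22.2% and 12.5% of lymphatic endothelial-like cells held an Edn1 UMI (26.6%, 21.7% and 36.8%, and 34.9%, 37.9% and 30.2%, before thinning). Among T, NK and B-like cells of PLV 1, which should lack the gene, it was 0 of 83 thinned cells (95% interval up to 4.35%). Their median depth was 2231 UMIs, against 3498 to 9601 in the endothelial-like classes.

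Edn3 (ENSMUSG00000027524, chr2:174760619-174784042, plus strand), the endothelin-3 precursor, was barely detected. Fibroblast-like cells held 2, 1 and 8 UMIs, pericyte-like and blood endothelial-like cells of PLV 2 held 1 UMI each, and the remaining sums were at 0. At this depth no difference between classes could be read.

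Ece1 (ENSMUSG00000057530, chr4:137862237-137965229, plus strand), which cuts the endothelin precursor to the active peptide, had the same 2 leading classes as Edn1. It stood in lymphatic endothelial-like cells at 839, 941 and 693 CPM (1917, 873 and 574 UMIs) and in blood endothelial-like cells at 591, 599 and 427 CPM (885, 377 and 672 UMIs). The lymphatic values were all above the blood values, and both were above the remaining classes in each library. Pericyte-like cells held 146, 180 and 112 CPM, fibroblast-like cells 158, 126 and 47.9 CPM, and muscle-like cells 70.2, 60.0 and 45.6 CPM. The fibroblast range overlapped with the pericyte and the muscle ranges, and in the mixed library the fibroblast-like and muscle-like levels were under the 57.0 CPM of near-empty droplets.

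Ednra (ENSMUSG00000031616, chr8:77663031-77724464, minus strand), the type A endothelin receptor, stood in pericyte-like cells at 352, 262 and 283 CPM (82, 32 and 106 UMIs) and in muscle-like cells at 203, 204 and 146 CPM (453, 160 and 359 UMIs). All pericyte-like values lay above all muscle-like values, with means of 299 ± 47.4 and 184 ± 33.1 CPM (SD, n = 3). Blood endothelial-like cells held 36.1, 11.1 and 30.5 CPM (54, 7 and 48 UMIs), fibroblast-like cells 11.3, 4.43 and 12.4 CPM (22, 2 and 27 UMIs), and lymphatic endothelial-like cells 9, 0 and 0 UMIs. The blood endothelial and fibroblast ranges overlapped, and in the mixed library the fibroblast level was under the 22.0 CPM of near-empty droplets and the blood endothelial level above it. After thinning, 50%, 43.5% and 40% of pericyte-like and 25.5%, 25.5% and 20.3% of muscle-like cells held an Ednra UMI (unthinned 50%, 55.6% and 74.1%, and 57.3%, 67.3% and 59.5%), against 0 of 83 thinned T, NK and B-like cells.

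Ednrb (ENSMUSG00000022122, chr14:103814625-103844402, minus strand), the type B receptor, stood in blood endothelial-like cells at 164, 161 and 147 CPM (246, 101 and 231 UMIs) and in lymphatic endothelial-like cells at 109, 107 and 104 CPM (248, 99 and 86 UMIs). These ranges did not touch, at means of 157 ± 9.30 and 106 ± 2.38 CPM (SD, n = 3). Pericyte-like cells held 129, 155 and 21.3 CPM (30, 19 and 8 UMIs), but 26, 16 and 6 of those UMIs lay in 1 cell of each library, and 5, 3 and 3 cells had any. Without that cell the pericyte-like level was 17.2, 24.5 and 5.33 CPM, the last under the 18.0 CPM of near-empty droplets of that library. Muscle-like cells held 6, 1 and 8 UMIs and fibroblast-like cells 0, 0 and 1. The blood endothelial-like level was 713-fold the fibroblast-like one, with a wide counting interval of 127 to 28195 because it rests on 1 fibroblast UMI.

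Agt (ENSMUSG00000031980, chr8:124556534-124569706, minus strand), the angiotensin precursor, stood in pericyte-like cells at 21.5, 89.9 and 80.0 CPM (5, 11 and 30 UMIs). In fibroblast-like cells it stood at 4.12, 0 and 53.0 CPM (8, 0 and 115 UMIs), so that the mixed library held nearly every fibroblast UMI. Blood endothelial-like cells held 5, 4 and 23 UMIs, lymphatic endothelial-like cells 5, 2 and 2, and muscle-like cells 0, 1 and 6. The fibroblast range overlapped with the pericyte and the blood endothelial ranges, which did not overlap with each other, and the lymphatic and muscle ranges overlapped.

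Ace (ENSMUSG00000020681, chr11:105967945-105989964, plus strand), the enzyme that makes angiotensin II, stood in blood endothelial-like cells at 222, 200 and 203 CPM (333, 126 and 320 UMIs) and in fibroblast-like cells at 201, 206 and 176 CPM (391, 93 and 382 UMIs). These 2 ranges overlapped. Lymphatic endothelial-like cells held less, at 105, 120 and 73.6 CPM (239, 111 and 61 UMIs), with no overlap with either. Pericyte-like cells held 7, 0 and 0 UMIs and muscle-like cells 3, 0 and 8, so mural cells were near the floor of detection. The blood endothelial-like level was 105-fold the muscle-like one (95% counting interval 58.2 to 211).

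Agtr1a (ENSMUSG00000049115, chr13:30336441-30382867, plus strand), the type 1 angiotensin receptor, stood in pericyte-like cells at 120, 278 and 93.3 CPM (28, 34 and 35 UMIs). Fibroblast-like cells held 54.6, 42.1 and 17.0 CPM (106, 19 and 37 UMIs), all under the pericyte-like values. Blood endothelial-like cells held 20.7, 22.3 and 34.3 CPM (31, 14 and 54 UMIs), a range that overlapped with the fibroblast one. Muscle-like cells held 4, 0 and 0 UMIs, and lymphatic endothelial-like cells held 0 in each library, where 3 UMIs would have been 1.31, 3.23 and 3.62 CPM. Pericyte-like cells were thus 182-fold above muscle-like cells (95% counting interval 68.8 to 681, 97 against 4 UMIs) and at least 179-fold above lymphatic endothelial-like cells (floor of 3 UMIs over the class). The near-identical gene Agtr1b can share reads with Agtr1a; it held 7, 1 and 5 UMIs in muscle-like cells and 0 in the other 4 classes, so the split between the 2 genes in muscle is uncertain.

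Differences between classes were tested with edgeR on UMI sums per library and class, with library as a block, as log2 differences ± standard error (SE) with p-values adjusted over all 10298 genes tested. The 3 mouse pools are the only replicates. With library as a block, the p-values measure how differences between classes vary over these libraries. Endothelial-like (the mean of both endothelial classes) against mural-like (the mean of muscle-like and pericyte-like) called 5 of 7 tested members, where 42.1% of all genes were called (20.5% higher and 21.6% lower). Genes entered these tests through the classes where they are high, so the counts of called members are a description. Where 1 side of a class comparison holds few UMIs of a called member, the call adds nothing to those UMIs, and no p is given. Edn1 was 6.89 ± 0.33 higher and Ace 4.99 ± 0.37, both on few mural UMIs. Ednrb was 3.06 ± 0.29 higher (adjusted p = 3.27e-07) and Ece1 2.87 ± 0.15 (adjusted p = 5.04e-10). Ednra was the 1 member lower in endothelium, at -4.93 ± 0.29 (adjusted p = 1.59e-09). Agtr1a (-2.69 ± 1.09, adjusted p = 0.0632) and Agt (-0.74 ± 0.73, adjusted p = 0.456) were not called, although Agtr1a passed without the mixed library (-3.28), by DESeq2 (-2.32), with no filter on low counts (-2.64) and with no library block (-2.71). Ace was at 7.88 without PLV 1, which held most of its few mural UMIs. Edn1, on 7 mural UMIs, was at 9.47 and Ednrb at 4.39 when the cell with most of their UMIs was left out of each sum. The median over the 7 members was 2.87, against -0.02 over all genes tested.

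Against fibroblast-like cells the same genes sorted differently. Endothelial-like cells were higher in Ednrb (8.40 ± 0.64, on 1 fibroblast UMI), Edn1 (2.70 ± 0.24, adjusted p = 1.17e-07) and Ece1 (2.43 ± 0.19, adjusted p = 2.42e-08). They were lower in Agtr1a (-4.67 ± 0.65, adjusted p = 4.05e-05), Agt (-2.29 ± 0.56, adjusted p = 0.00344) and Ace (-0.72 ± 0.26, adjusted p = 0.0366). That is 6 of 7 members called, against 41.4% of genes (18.4% higher and 23% lower), with a median of -0.72 over the members and -0.03 over all genes. Agt lost its call without the mixed library (-0.29), Ace lost it without PLV 2 (-0.70), by DESeq2 (-0.72) and with no library block (-0.73), and Ednra, not called here (-0.77 ± 0.44, adjusted p = 0.185), was called without PLV 1 (-2.94). For Ace the lymphatic endothelial-like range lay under the fibroblast one and the blood endothelial-like range overlapped with it. For Agtr1a lymphatic endothelial-like cells held 0 UMIs. Its blood endothelial-like range overlapped with the fibroblast one (26.7 against 35.5 CPM, summed over libraries), and so did that of Agt.

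Mural-like cells were above fibroblast-like cells in both endothelin receptors, Ednrb by 5.34 ± 0.94 and Ednra by 4.16 ± 0.35 (adjusted p = 1.30e-07). They were below in Ace (-5.71 ± 0.39) and Edn1 (-4.20 ± 0.47), both on few mural UMIs. They were also below in Agtr1a (-1.98 ± 0.49, adjusted p = 0.00534) and Agt (-1.55 ± 0.57, adjusted p = 0.0455). This made 6 of 7 members, where 36.5% of genes were called (15.5% higher and 21% lower), with a median of -1.55 over the members and -0.04 over all genes. The sign for Agtr1a and Agt belongs to the mean of muscle-like and pericyte-like cells, since pericyte-like cells alone were above fibroblast-like cells in both. The Ednrb value rests largely on the single pericyte-like cells named above and on 1 fibroblast UMI. Ace was at -8.66 without PLV 1 and Edn1 at -6.47 without the mixed library, both on few mural UMIs. Without the mixed library the Agt difference was 0.15 and not called, and the Agt call was also lost by DESeq2 (-1.13), at 1000 UMIs per cell (-1.40), with no library block (-1.76) and without cells of another class (-1.50). Ece1 (-0.44 ± 0.18, adjusted p = 0.0664) was called without the mixed library (-0.68), without the top cell (-0.54), without cells of another class (-0.56) and at resolution 2 (-0.51).

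Within the mural cells, 4 of 7 members were lower in muscle-like than in pericyte-like cells and 0 were higher, where 5.54% of genes were lower, 6.77% higher and 12.3% were called in all. Agtr1a differed by -7.21 ± 0.66, Agt by -5.43 ± 0.85 and Ednrb by -4.69 ± 0.54, on 4, 7 and 15 muscle-like UMIs. Ece1 differed by -1.10 ± 0.23 (adjusted p = 0.00407). The Ednrb difference shrank to -2.42 when the cell with most Ednrb UMIs was left out of each sum, and stayed called. Ednra, whose ranges did not overlap, was not called (-0.50 ± 0.30, adjusted p = 0.340). Ece1 lost its call without PLV 2 (-1.01). Ace, on 18 UMIs in all, was -2.05 ± 1.02 (adjusted p = 0.232), was called at -3.96 without the mixed library and turned to 4.34 without PLV 1. Edn1, on 7 UMIs, gave no usable difference. The median was -2.05 over the 7 members and 0.05 over all genes.

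Lymphatic against blood endothelium called 4 of 7 members, where 22.1% of genes were called (9.97% higher and 12.1% lower in lymphatic cells). Ece1 was higher in lymphatic endothelial-like cells by 0.60 ± 0.18 (adjusted p = 0.0267). Ednra (-3.68 ± 0.55, on 9 lymphatic UMIs) and Ace (-1.10 ± 0.31, adjusted p = 0.0176) were lower. So was Agtr1a, at 0 UMIs in lymphatic and 99 in blood endothelium, which is at least 36.0-fold. Ednra and Agtr1a entered the test through other classes, so their calls add nothing to the UMIs. Edn1 (0.34 ± 0.21, adjusted p = 0.332), Ednrb (-0.59 ± 0.29, adjusted p = 0.190) and Agt (-1.36 ± 0.88, adjusted p = 0.339) were not called. Ednrb was called without the mixed library (-0.63), while the count fell to 2 without PLV 2, where Ece1 (0.59) and Ace (-1.27) were lost. Ece1 was lost without PLV 1 too (0.65), where Ednra was at -7.40 with lymphatic cells at 0 UMIs. With no library block Ece1 (0.59) and Ace (-1.10) were lost, by DESeq2 Ace (-1.10), and without the top cell Ece1 (0.48). The median over the 7 members was -1.10, with Agtr1a at its fitted value or at its bound, against -0.02 over all genes.

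**Figure D2:**
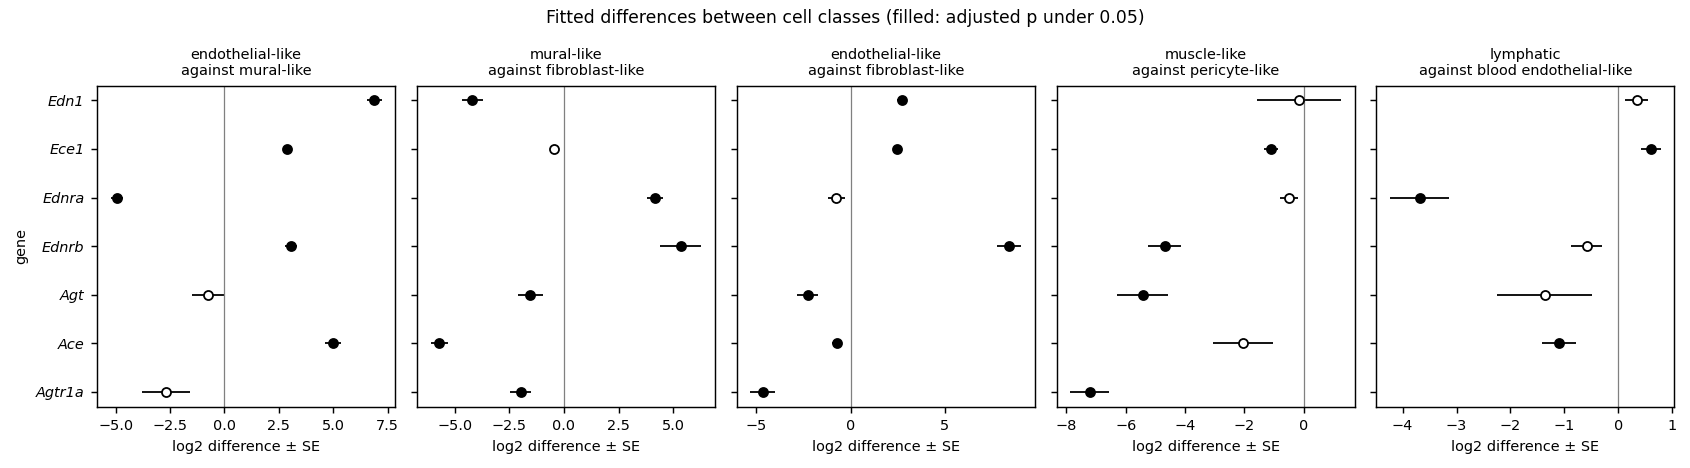
Fitted log2 differences ± SE (x axis) of the 7 tested genes (y axis) in 5 comparisons between cell classes; filled points have an adjusted p under 0.05. Agtr1a is left out of the lymphatic against blood comparison, where the lymphatic class is at 0 UMIs; Ednra points away from Edn1, Ece1, Ace and Ednrb in the comparison with mural cells.

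The levels of Ednra, Agtr1a and Agt in blood endothelial-like cells moved with pericyte RNA in the same cells. Muscle markers also summed to 1691, 1020 and 1321 CPM in blood endothelial-like cells of PLV 1, PLV 2 and mixed. Their part in these levels was not tested. All 59 blood endothelial-like cells with an Ednra UMI, all 42 with an Agtr1a UMI and all 19 with an Agt UMI also held at least 2 UMIs of the pericyte markers. For the 3 other genes counted this way the overlap was partial, at 64 of 154 cells for Ednrb, 38 of 146 for Edn1 and 99 of 272 for Ace. Cells with at least 2 pericyte marker UMIs made up 95 of 259, 16 of 60 and 40 of 174 blood endothelial-like cells. They were deeper, with medians of 7333, 14855 and 14643.5 UMIs against 3258.5, 7505 and 4290.5 in the others, and the doublet caller had removed 10, 3 and 3 cells per library. When these cells were left out, Ednra, Agtr1a and Agt stood at 0 UMIs in blood endothelial-like cells of all 3 libraries, which only restates that overlap. Ednrb then stood at 162, 136 and 91.0 CPM and Edn1 at 227, 199 and 229 CPM. Whether the shared cells come from joined cells or from cells that express both sets was not tested.

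An alternative added after the data were seen left out those cells and all others with at least 2 UMIs of another class's markers, which were 2 to 7 fibroblast-like, 0 to 2 pericyte-like and 0 to 3 muscle-like cells per library besides the endothelial ones. Agtr1a and Agt against mural-like and Ednra against fibroblast-like cells then passed as lower in endothelium, which the rule itself fixed, since it takes out every blood endothelial-like cell with a UMI of these genes, so no difference is given. Between the endothelial classes, Ednra and Agtr1a had no value, being at 0 UMIs in both, Ece1 lost its call (0.40), and Edn1 turned to -0.96 and was called. That last comparison also changed depth, since the rule took out 31, 11 and 7 deep lymphatic endothelial-like cells, whose medians were 34797, 33465 and 74081 UMIs against 2859, 6035 and 4123.5 in the rest, and which held 20, 0 and 1 UMIs of Rgs5.

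Edn1 and Ednrb ran opposite ways between the 2 kinds of blood endothelial cluster found in each library. Each library had a cluster whose leading genes included Gpihbp1 and Cd36, known from capillary endothelium, and one whose leading genes included Selp, known from venules, and Aqp1. In the Gpihbp1-led clusters Edn1 stood at 10.0, 83.6 and 35.2 CPM (7, 40 and 29 UMIs, 24 of the 40 in 1 cell), and in the Selp-led clusters at 202, 279 and 147 CPM (87, 42 and 75 UMIs, 20 of the 42 in 1 of 3 positive cells, without which PLV 2 was at 146 CPM). Ednrb stood at 251, 207 and 266 CPM in the Gpihbp1-led clusters (175, 99 and 219 UMIs) and at 6.95, 13.3 and 9.79 CPM in the Selp-led ones (3, 2 and 5 UMIs). The kinds of cluster did not overlap for either gene.

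In that comparison, added after the data were seen, 5 of 6 tested members were called, where 16% of 6371 genes were (9.01% higher and 6.98% lower). Relative to the Gpihbp1-led clusters, the Selp-led ones were higher in Edn1 by 2.62 ± 0.31 (adjusted p = 1.90e-05, with values of 1.26 at resolution 0.5 to 3.04 without PLV 2), Ace by 0.77 ± 0.17 (adjusted p = 0.00476) and Ece1 by 0.54 ± 0.13 (adjusted p = 0.00813). Ednrb (-4.57 ± 0.29) and Agtr1a (-3.48 ± 0.64, on 4, 0 and 0 Selp-led UMIs) entered the test through the Gpihbp1-led clusters alone, so their calls, and the count of 5, add nothing to the UMIs. Ednra was not called (-1.20 ± 0.48, adjusted p = 0.115) but passed with no filter on low counts (-1.25) and at resolution 0.5 (-1.15). Agtr1a was at -7.78 without PLV 1, where the Selp-led clusters held 0 UMIs, and at -2.17 without the mixed library. Rgs5, a pericyte marker, stood at 1568, 696 and 963 CPM in the Gpihbp1-led and at 684, 6.63 and 221 CPM in the Selp-led clusters. Without cells holding pericyte marker UMIs, Edn1 (2.00) kept its call, Ednrb was at -4.43, Ace (0.32) and Ece1 (0.42) did not pass, and Agtr1a was at 0 on both sides. Ece1 also lost its call without PLV 1 (0.49) and, together with Ace (0.54), without the mixed library (0.46). Both calls were also lost by DESeq2 (Ace 0.74 and Ece1 0.52) and with no library block (0.75 and 0.51), and that of Ece1 without the top cell (0.45).

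**Figure D3:**
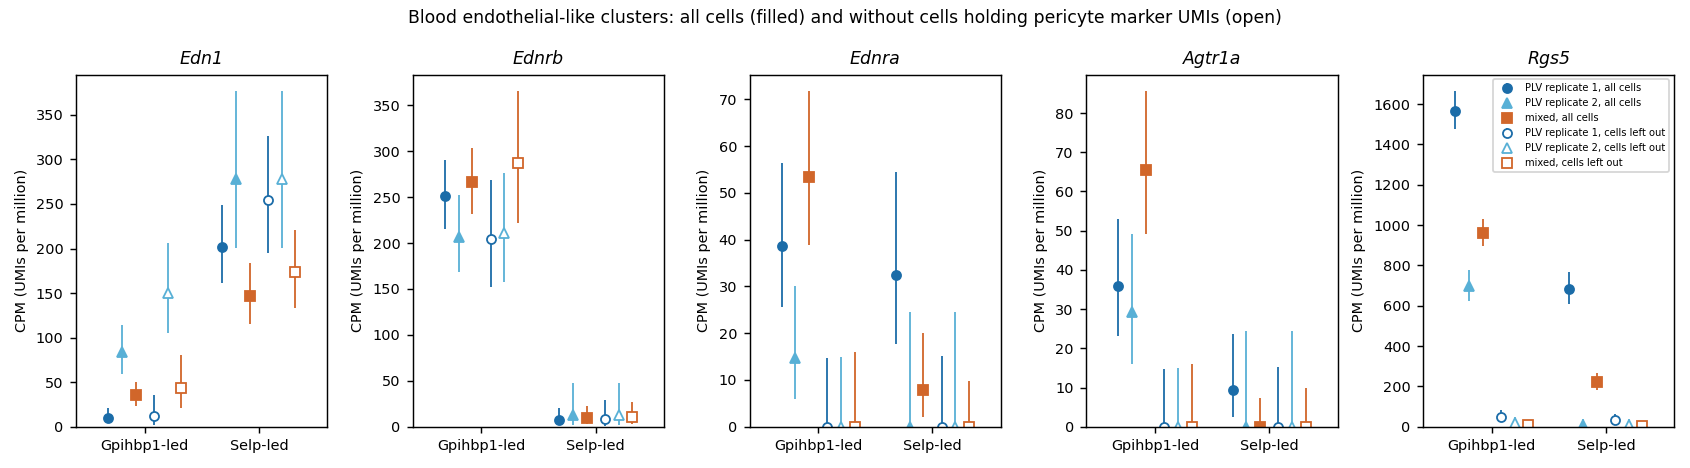
Levels (y axes, CPM, linear, own scale for each gene) of Edn1, Ednrb, Ednra, Agtr1a and the pericyte marker Rgs5 in Gpihbp1-led and Selp-led blood endothelial-like clusters of the 3 libraries, for all cells (filled) and without cells holding at least 2 pericyte marker UMIs (open); bars are 95% Poisson counting intervals. Ednra and Agtr1a are at 0 without those cells, since all of their UMIs lie in them. Ednrb stays high in the Gpihbp1-led clusters and Edn1 in the Selp-led ones.

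The highest Edn1 levels of any blood endothelial-like cluster lay outside these 2 kinds, in clusters of single libraries that were not tested. A cluster of PLV 1 led by Sema3g and Gja5, known from arterial endothelium, held Edn1 at 334 CPM (123 UMIs), Ace at 334 CPM and Ednrb at 185 CPM. A cluster of the mixed library led by Cytl1 and Vwf held Edn1 at 493 CPM (119 UMIs), Ace at 311 CPM and Ednrb at 29.0 CPM. An unnamed cluster of PLV 2 led by Cytl1 and Gkn3, with a median of 956 UMIs per cell, held Edn1 at 259 CPM (23 UMIs), under the Selp-led cluster of that library, and Ednrb at 33.8 CPM (3 UMIs).

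Most fibroblast Edn1 lay in Pi16-led clusters. The Pi16-led clusters, which carry genes of the adventitia such as Pi16 and Fbn1, held 49, 9 and 22 Edn1 UMIs (69.8, 115 and 45.2 CPM), and the Cxcl14-led clusters held 0 in each library, which is at least 30.2-fold (floor of 3 UMIs over the Cxcl14-led clusters). The other 15 fibroblast UMIs lay in a cluster of PLV 1 led by Myoc, at 24.5 CPM. With edgeR this was the 1 called member of 4 tested, but Edn1 passed the filter on low counts through the Pi16-led clusters alone, so its call adds nothing to the UMIs given. Among 5695 genes tested, 2% were called (1.3% higher and 0.702% lower). DESeq2 called 121 genes and 0 members, but gave Edn1 no adjusted p. Without PLV 1, 0 members and 0 of all genes were called. Without PLV 2 the count was 2 members, Edn1 among them. Ece1, Ace and Agtr1a were not called, with differences of -0.08 ± 0.27, 0.50 ± 0.33 and -0.11 ± 0.37.

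Fibroblast Agt lay in the other kind. In the mixed library the Cxcl14-led cluster held 112 of the 115 fibroblast UMIs, at 167 CPM, spread over 35 of its 97 cells with 11 UMIs in the highest. The Cxcl14-led clusters of PLV 1 and PLV 2 held 8 and 0 UMIs, and the Pi16-led clusters 0, 0 and 2. In the mixed library another fibroblast cluster, led by Col4a4, held Ace at 18.8 CPM (18 UMIs), below the 292 and 343 CPM of the Cxcl14-led and Pi16-led clusters. Fibroblast Ace was thus uneven in that library.

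In the 2 kinds of muscle-like cluster only Ednra and Ece1 had enough counts to be tested. Clusters led by Hmcn2 held Ednra at 215, 236 and 175 CPM (155, 76 and 231 UMIs), and clusters led by Pln held it at 196, 182 and 138 CPM (298, 84 and 43 UMIs). The ranges overlapped, and with edgeR 0 of 2 tested members were called, where 32.5% of 7073 genes were called (15.8% higher and 16.7% lower) and 2790 had an unadjusted p under 0.05; DESeq2 also called 0 members. The log2 differences were 0.11 ± 0.16 for Ednra (adjusted p = 0.667) and 0.55 ± 0.23 for Ece1 (adjusted p = 0.0694), the latter called at 0.68 without the mixed library, at 0.67 at resolution 2 and at 0.63 with doublets kept. Ace held 0 UMIs in Hmcn2-led clusters and 3, 0 and 6 in Pln-led ones. A further muscle-like cluster of the mixed library, led by P2rx1, held Ednra at 103 CPM (85 UMIs).

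The PLV and mixed libraries were compared within each class, taking the lone mixed library to vary as the PLV libraries do. The adjusted p-values rest on that assumption and compare these libraries, not the vessels. In fibroblast-like cells 2 of 6 tested members were called, where 15.9% of 10594 genes were (5.81% higher and 10.1% lower). Agt was lower in the PLV libraries, at 4.12 and 0 against 53.0 CPM (8 and 0 against 115 UMIs). It passed the filter on low counts through the mixed library alone, so its call supports nothing beyond these levels; the fitted difference was -4.57 ± 0.49, and -4.81 with the highest cell of each library left out. DESeq2 gave -5.05 and no adjusted p. The value was -9.21 without PLV 1, where the PLV side is at 0 UMIs, and -4.26 without PLV 2, both with no test. Ece1 was higher in the PLV libraries by 1.04 ± 0.34 (adjusted p = 0.0198), from 158 and 126 against 47.9 CPM, the last under the level of near-empty droplets, and was not called by DESeq2. Within the fibroblast sums the fibroblast markers reached 72339 and 68363 CPM in the PLV libraries and 130400 CPM in the mixed one; their part in these differences was not tested.

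In pericyte-like cells 1 of 5 tested members was called, where 3.11% of 5149 genes were (0.952% higher and 2.16% lower). This was Ednrb, higher in the PLV libraries by 2.45 ± 0.53. It passed the filter on low counts through the PLV libraries alone, so its call supports nothing beyond the UMIs. The difference rests on 1 cell in each library: 26 of 30, 16 of 19 and 6 of 8 UMIs. Without those cells 4, 3 and 2 UMIs remained, too few for Ednrb to be tested, and 0 members were called. In muscle-like cells 0 of 2 tested members were called (15.3% of 10847 genes were, 7.3% higher and 7.98% lower; 3071 had an unadjusted p under 0.05; DESeq2 called 212 genes and 0 members). In lymphatic endothelial-like cells 0 of 4 were called (0.8% of 8998 genes, 0.333% higher and 0.467% lower, 1188 unadjusted; DESeq2 called 22 genes and 0 members). In blood endothelial-like cells edgeR called 0 of 7 members and 0% of 10262 genes, with 1262 genes at an unadjusted p under 0.05 and 32 called by DESeq2, 0 of them members. The largest member differences there were those of Agt (-1.88 ± 0.62, adjusted p = 0.390) and Agtr1a (-0.84 ± 0.29, adjusted p = 0.401), and Ednrb was at 0.00 ± 0.23. Tested across classes, the gap between kinds of library differed for 1 of 7 members, where 2.87% of genes were called; this was again Ednrb (adjusted p = 0.0438), and it was lost with those single cells left out. Agt, called in fibroblasts alone, was not called in that test, but was with no filter on low counts, as were Agtr1a and Ace.

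**Figure D4:**
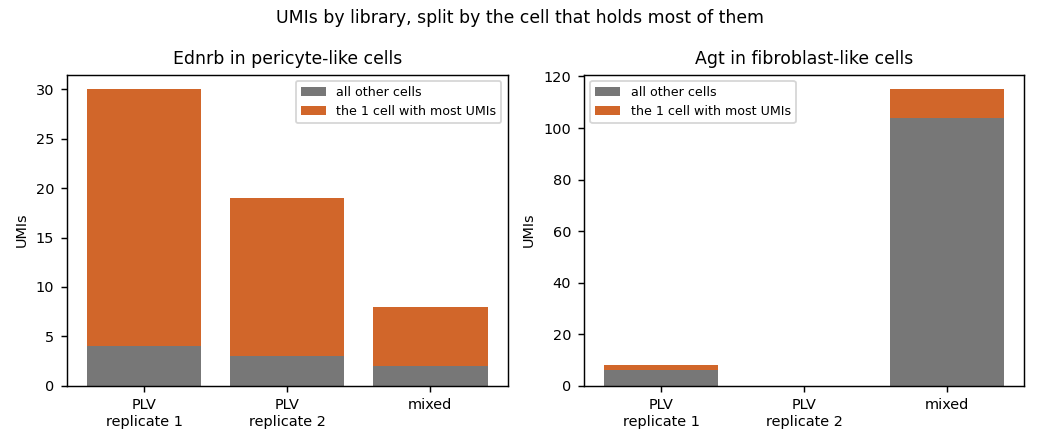
UMIs of Ednrb in pericyte-like cells (left) and of Agt in fibroblast-like cells (right) by library (x axis), with the y axis from 0; orange is the 1 cell with most UMIs and grey all other cells. Ednrb lies mostly in 1 cell per library (26 of 30, 16 of 19 and 6 of 8 UMIs), and Agt of the mixed library is spread over many cells.

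Within single cells, ligand and receptor were seen together in lymphatic endothelium. Edn1 and Ednrb UMIs were held together by 32 of 192, 11 of 66 and 9 of 53 lymphatic endothelial-like cells, where the product of the 2 shares gives 21.3, 12.1 and 6.94. In blood endothelial-like cells it was 11 of 259, 4 of 60 and 13 of 174, where the product gives 18.6, 6.72 and 19.5. The count was thus below the product in each library in blood endothelium, and above it in PLV 1 and mixed but not in PLV 2 in lymphatic endothelium. In pericyte-like cells Ednra and Agtr1a were held together by 10, 13 and 20 cells, against 6.00, 8.89 and 18.5. Deeper cells show more genes, so these counts are a description.

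The genes whose levels ran most like each member over the 15 sums of class and library are given by Pearson's r on log levels, as a description, since the sums share libraries and cells. Edn1 ran with Tek (0.99), Ptgs1 (0.98) and Vsir (0.97), and Ece1 with Cpd, Elk3 and Piezo1 (each 0.97). Ednra ran with the calcium channel gene Cacna1c (0.98), Daam2 (0.98) and Tuba1c (0.97), and Ednrb with Adgrf5 (0.96) and 4931406P16Rik (0.95). Agtr1a ran with Cyp26b1 (0.96), Deptor (0.96) and Irak3 (0.95), and Ace with Rai14 (0.97), Slc43a3 (0.96) and Trim30a (0.96). Agt had no close partner, with Cdk4 first at 0.83. Among the members, Edn1 and Ece1 had r = 0.83 and Edn1 and Ednra r = -0.84.

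Beside the counts of the pathway lists, the share of all genes called was 42.1% for endothelial against mural cells, 41.4% for endothelial against fibroblast cells, 36.5% for mural against fibroblast cells, 12.3% for muscle against pericytes and 22.1% for lymphatic against blood endothelium. Of 26 other genes of peptide processing and related receptors, 11 were tested and 8 passed in at least 1 of the 5 class comparisons. Counts higher and lower were 3 and 2 for endothelial against mural cells, 1 and 6 for endothelial against fibroblast cells, 1 and 6 for mural against fibroblast cells, 1 and 2 for muscle against pericytes, and 2 and 3 for lymphatic against blood endothelium. For endothelial against mural cells, 5 of 11 is near the share of all genes. Mme, the membrane protease neprilysin, held 70, 26 and 55 UMIs in fibroblast-like cells and 0 in both mural classes of each library. Enpep, aminopeptidase A, which trims angiotensin II, stood in pericyte-like cells at 142, 270 and 74.6 CPM, and was lower in lymphatic than in blood endothelium by -4.07 ± 0.81 (adjusted p = 0.00129), where blood endothelial-like cells also carried the higher pericyte marker levels given above, whose part in this difference was not tested. In muscle it held 102, 74 and 142 UMIs in Hmcn2-led against 6, 3 and 1 in Pln-led clusters. Prcp, which also cuts angiotensin II, was higher in endothelial than in mural cells by 4.03 ± 0.30 (adjusted p = 1.89e-08). Anpep, aminopeptidase N, was lower in mural than in fibroblast cells by -3.42 ± 0.29 (adjusted p = 1.59e-07), and Nln, the peptidase neurolysin, was lower in muscle than in pericytes by -2.48 ± 0.42 (adjusted p = 0.000938).

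Several other pathway genes were near or at 0 in most classes. Ren1, the renin gene, and Edn2 held 0 UMIs in the 5 classes of the 3 libraries. Agtr2 held 3, 0 and 2 UMIs in fibroblast-like cells, and Mas1 held 2, 1 and 3 in muscle-like cells. Cma1 and Mcpt4, mast cell chymases, held 89 and 106 UMIs in muscle-like cells of the mixed library against 1 and 3 in PLV 1 and 0 and 0 in PLV 2. Both entered the test through that 1 library, so no p is given. The 5 mast cell markers summed there to 70.8 CPM with 0 at 0, and to 21.9 and 43.4 CPM with 3 at 0 in the PLV libraries; their part in this difference was not tested.

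Of 20 genes of the transduction these receptors share, 18 were tested and 16 passed in at least 1 class comparison. Counts higher and lower were 4 and 4 for endothelial against mural cells, 8 and 3 for endothelial against fibroblast cells, 9 and 3 for mural against fibroblast cells, 2 and 1 for muscle against pericytes, and 2 and 7 for lymphatic against blood endothelium. For endothelial against mural cells, 8 of 18 is near the 42.1% of all genes called. Arhgef25, a guanine nucleotide exchange factor driven by Gq, stood at 109, 103 and 91.1 CPM in muscle-like and 129, 172 and 123 CPM in pericyte-like cells, and was lower in endothelium by -3.97 ± 0.19 (adjusted p = 2.27e-10). Rock1, a kinase that promotes contraction, was higher in mural than in fibroblast cells by 1.80 ± 0.14 (adjusted p = 7.80e-08). Plcb1, a phospholipase C of the Gq pathway, stood at 94.2, 114 and 102 CPM in blood and at 9.63, 9.70 and 7.24 CPM in lymphatic endothelial-like cells, a difference of -3.57 ± 0.28 (adjusted p = 1.23e-07). Arrb1, a beta-arrestin that ends receptor signals, was higher in endothelial than in mural cells by 2.64 ± 0.20 (adjusted p = 2.31e-08), and Plcb4 was higher in endothelial than in fibroblast cells by 1.94 ± 0.25 (adjusted p = 1.06e-05).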

How the data were processed

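The 3 libraries of single cells were analysed, with 2649, 730 and 896360 barcodes in the files. The deposited UMI counts per gene and cell are raw, made with Cell Ranger 6.1.2 for the PLV libraries and Cell Ranger 4 for the mixed one, per the file headers; the submitters' processing notes also name Seurat and build GRCm38. Cells with at least 500 UMIs, 300 genes, at most 15% mitochondrial and 20% haemoglobin UMIs were kept, and 10, 3 and 3 predicted doublets were removed. Cells were clustered per library with scanpy 1.11.5 and leidenalg 0.10.2 on 2000 variable genes without the members, the other pathway genes or tdTomato. Clusters took a class from fixed markers when at least 3 were raised, and mixed clusters were split. Counts were summed per library and class (at least 10 cells) and tested with edgeR 4.0.16 (TMM, quasi-likelihood, library as block, Benjamini-Hochberg, threshold 0.05), and with DESeq2 1.42.0 as an alternative, after a check on simulated data. Intervals cover counting error at 95% only. The members and lists were chosen with earlier results of these data known, and the rule named all 8 members and, per list, the 8 genes with the largest passing difference. Comparisons between clusters, the splitting of clusters and 2 alternatives (leaving out cells with UMIs of another class, and the cell with most UMIs of a member) were added after the data were seen. A few genes that these rules name are not reported here.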

Additional observations from a re-analysis of the deposited data

Results flagged for a closer look

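Ednrb was flagged because its gap between the PLV and the mixed libraries differed between the 5 classes (edgeR, adjusted p = 0.0438, over 10298 genes tested). Its levels differed by 2.45 on the log2 scale in pericyte-like cells and by 0.00 in blood endothelial-like cells. Over the 10 alternatives the adjusted p ran from 0.00393 to 0.717, the last with the 1 cell per library and class that holds most Ednrb UMIs left out.

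Ednrb was also high in macrophage-like cells, which the comparisons above do not use: 785 CPM in PLV 1 (115 UMIs in 47 cells) and 123 CPM in the mixed library (22 UMIs in 31 cells), against 18.0 CPM in near-empty droplets of the mixed library. PLV 2 had no cluster named macrophage-like. Neither value was compared between groups.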

How the results depend on the processing

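Of 1002 values of single members under alternatives, 916 were counted as unchanged, 34 lost a call, 22 gained one, 7 moved and 23 changed sign. Unchanged values kept their sign and side of the threshold. Values with no adjusted p counted as unchanged within the SE of the main value, and the test across classes has no sign. Members called moved by over 1.5 times as follows, with the cause not tested. Lymphatic against blood endothelium went from 4 to 2 without cells holding UMIs of another class. Selp-led against Gpihbp1-led clusters went from 5 to 2 there and to 3 with DESeq2. Without the pairing by library (no replicate block) these 2 counts were 2 and 3. Pi16-led against Cxcl14-led clusters went from 1 to 2 at 1000 UMIs per cell, 2 with no filter and 0 with DESeq2, which gave Edn1 no adjusted p. Hmcn2-led against Pln-led went from 0 to 1 with no filter, with doublets kept and at resolution 2. The test across classes went from 1 to 0 at 10% mitochondrial UMIs, at resolution 2, with DESeq2, without cells of another class and without the top cell, and to 4 with no filter. PLV against mixed lost its calls in fibroblasts with DESeq2, which gave Agt no adjusted p. In pericytes it lost its call without the top cell, where Ednrb was no longer tested. Leaving out 1 library gave 2 to 5, 3 to 5, 0 to 2 and 0 to 1 for the first 4, and 5 to 6, 6 to 6, 5 to 7 and 3 to 5 for endothelial against mural, mural against fibroblast, endothelial against fibroblast and muscle against pericyte.

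Signs turned, mostly near 0, for Ednrb between PLV and mixed blood endothelium (main 0.00; -0.032, -0.0039, -0.015, -0.016, -0.019, -0.019, -0.052 and -0.013) and lymphatic endothelium (0.16 and 0.39), and between Pi16-led and Cxcl14-led clusters for Agtr1a (0.069, 0.016, 0.22 and 0.10) and Ece1 (0.065). They turned on few UMIs for Edn1 (0.012, 1.44, 2.64 and 3.29) and Ace (-2.14 to 4.34 without 1 PLV library) in muscle against pericytes, Agt in lymphatic against blood endothelium (4.36) and in mural cells against fibroblasts (0.15). Edn1 in lymphatic against blood endothelium turned to -0.96, and was called, without cells of another class. Pi16-led against Cxcl14-led clusters had no value at resolution 0.5. Depth limits Edn3, Agt outside pericytes and fibroblasts, and receptors in pericyte-like cells, whose sums held 122319 to 375146 UMIs.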

Other observations

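Outside the 5 classes, Ednrb was found in Schwann-like cells. Clusters led by genes such as Scn7a and Cdh19 held it at 143, 128 and 50.7 CPM in PLV 1, PLV 2 and mixed (10, 5 and 2 UMIs). Each value rests on at most 10 UMIs. In PLV 1 an unnamed cluster led by Ndufa4l2 and Rgs5, with markers of both muscle and pericytes, held Ednra at 233 CPM (19 UMIs), and the mast-like cluster held it at 244 CPM (9 UMIs).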
